A study of Mus musculus with 3 samples.

Results

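The cytoplasmic ribosomal protein genes were taken by name from the gene symbols of the deposited matrices. A symbol counted when it consisted of Rpl or Rps, a number and optional letters, or when it was Rplp0, Rplp1, Rplp2 or Rpsa. Kinase genes of the Rps6k group, names with -ps, and Rps19bp1 and Rps23rg1, which only carry a ribosomal protein's name, were left out. This gave 90 of 29994 symbols, 54 for the large ribosomal subunit and 36 for the small one, and all 90 had UMIs in each library. In GENCODE M21 each of them matched 1 gene, spread over 19 chromosomes. Of these, 84 were protein coding and 6 were processed pseudogenes (Rpl37rt, Rps4l, Rpl32l, Rpl6l, Rps3a2 and Rps3a3).

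Droplet RNA sequencing (10x Genomics) was done on frozen ventricle of C57B6 mice in 3 libraries, each from 3 pooled hearts. The Sham library came from sham-operated mice given vehicle and the TAC library from mice given vehicle after transverse aortic constriction, in which a tie around the aortic arch makes the left ventricle pump against a higher pressure. The TAC+ART library came from mice given artesunate, an artemisinin antimalarial, under TAC. The labels state neither age, sex, time after surgery and dose nor whether cells or nuclei were loaded. Since there was 1 library per group, no test between groups was possible, and all intervals below cover counting error only.

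Ribosomal proteins are the protein part of the ribosome, the particle that translates mRNA. The large subunit joins amino acids and the small subunit reads the message, and most of their proteins are made in equal numbers because each ribosome holds 1 copy. Their mRNAs are short, abundant and mostly cytoplasmic, and most begin with a terminal oligopyrimidine (TOP) tract, a C at the cap followed by a run of C and T, through which mTOR and the RNA-binding protein Larp1 control translation. Growth of heart muscle under load is known to involve new ribosomes. A few members have a second form, and Rpl3l, the form of Rpl3 found in heart and skeletal muscle, is the best known of these.

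The start sequences below show that tract in 4 members described later and its absence at the annotated start of Rpl3l (the first of 2 starts) and Rpl7l1, which stood apart from the other members in the counts. Each line is 25 bases, 5′ to 3′, from 10 bases before the annotated transcript start to 15 bases from it, taken from RefSeq on GRCm38.p6. Capitals mark the unbroken run of C and T that spans the annotated start.
Rps6: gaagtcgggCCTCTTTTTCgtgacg
Rps27: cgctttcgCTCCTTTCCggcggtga
Rplp2: cagcgTCTTCCTTTCgccgccggac
Rpl35: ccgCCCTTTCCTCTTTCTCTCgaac
Rpl3l: ttctagctctgtcatttgacctctg
Rpl7l1: gctgcgcaagCgcagtagctgaagc
On GRCm38 these windows lie at chr4:86857353-86857377 (minus strand) for Rps6, a kinase target of the small subunit, and chr3:90213634-90213658 (minus) for Rps27. Rplp2 lies at chr7:141447641-141447665 (plus) and Rpl35 at chr2:39005117-39005141 (minus). The window of Rpl3l is chr17:24727816-24727840 (plus) and that of Rpl7l1 is chr17:46782642-46782666 (minus). The run in capitals was 10 bases long in Rps6, 9 in Rps27, 10 in Rplp2 and 18 in Rpl35. It begins before the annotated start in each of them, so the tract counted from that start is shorter.

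Windows of 300 bases around the start were at hand for 66 of the 90 members. A C followed by at least 4 pyrimidines exactly at an annotated start was found in 15 of the 66 (22.7%), against 3.01% of 27025 genes. Within 10 bases of a start it was found in 40 of the 66 (60.6%), Rpl3l among them, against 34.4% of all genes. Its absence at the start did not set Rpl3l and Rpl7l1 apart, since most members with a window lacked it there. The motif CCGGAAG, a core bound by ETS factors such as GABP, was found on either strand in 26 of the 66 windows (39.4%) against 9.93% of all genes. The motif AAGATGGCG, a YY1 core, was found on either strand in 4 (6.06%) against 1.64%. Both searches read the whole window on both strands, and a match describes letters and not binding.

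Depth was 17710689 UMIs over 3752 Sham barcodes, 37658150 over 7413 TAC barcodes and 33364667 over 6856 TAC+ART barcodes, with medians of 4310, 4811 and 4524.5 UMIs per barcode. Libraries shared 20 to 27 barcode sequences pairwise. Barcodes were put into cell classes by marker genes: a class needed at least 3 of its markers and at least 4 times the library's median share of them, and 361 Sham, 580 TAC and 543 TAC+ART barcodes that passed unrelated classes were left out. This left 843, 495 and 411 fibroblast-gated cells, 280, 236 and 371 cardiomyocyte-gated cells, 1025, 1982 and 1871 endothelial-gated cells and 311, 1421 and 1040 macrophage-gated cells in Sham, TAC and TAC+ART. All 10 cardiomyocyte markers, which include the ventricular light chain Myl2, had UMIs in the cardiomyocyte gate of every library. The median fibroblast-marker share was 0.177% in Sham, 0.338% under TAC and 0.422% under TAC+ART, so the fibroblast gate kept only cells with more marker RNA in the latter pair. A wider gate, chosen after seeing the data, added barcodes of no class with at least 3 fibroblast markers at 2 times the median and held 1052, 1404 and 1572 cells. Its values are given beside the main fibroblast results.

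Ribosomal protein UMIs were a larger share of all UMIs in TAC than in Sham, with TAC+ART between them. Over whole libraries the 90 members held 0.649% of UMIs in Sham, 1.35% under TAC and 1.11% under TAC+ART. In cardiomyocyte-gated cells, the contractile cells of the heart, the share was 0.445% in Sham (95% Clopper-Pearson interval 0.435 to 0.454), 1.83% under TAC (1.80 to 1.85) and 0.976% under TAC+ART (0.963 to 0.989). Fibroblast-gated cells held 0.511%, 1.86% and 1.30%, and with the wider gate 0.497%, 1.38% and 1.01%. In none of these classes did the counting intervals of the 3 libraries overlap.

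Endothelial-gated cells, which line vessels, started higher, at 0.870% in Sham, and reached 1.53% in TAC and 1.29% in TAC+ART. Macrophage-gated cells held 0.485%, 1.04% and 0.907%, and pericyte-gated cells, which wrap capillaries, 0.451%, 0.966% and 0.830%. Lymphatic endothelial cells held 0.823%, 1.40% and 1.14%. Endocardial-gated cells, the inner lining of the heart chambers, were the one class of 7 in which TAC+ART (1.36%) exceeded TAC (1.26%), with Sham at 0.845%. The order of the classes therefore changed between libraries: in Sham the endothelial, endocardial and lymphatic classes were highest, whereas in TAC fibroblast-gated (1.86%) and cardiomyocyte-gated cells (1.83%) were. The place of the fibroblasts rests on the narrow gate: with the wider gate they held 1.38% in TAC, below endothelial and lymphatic cells.

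**Figure D1:**
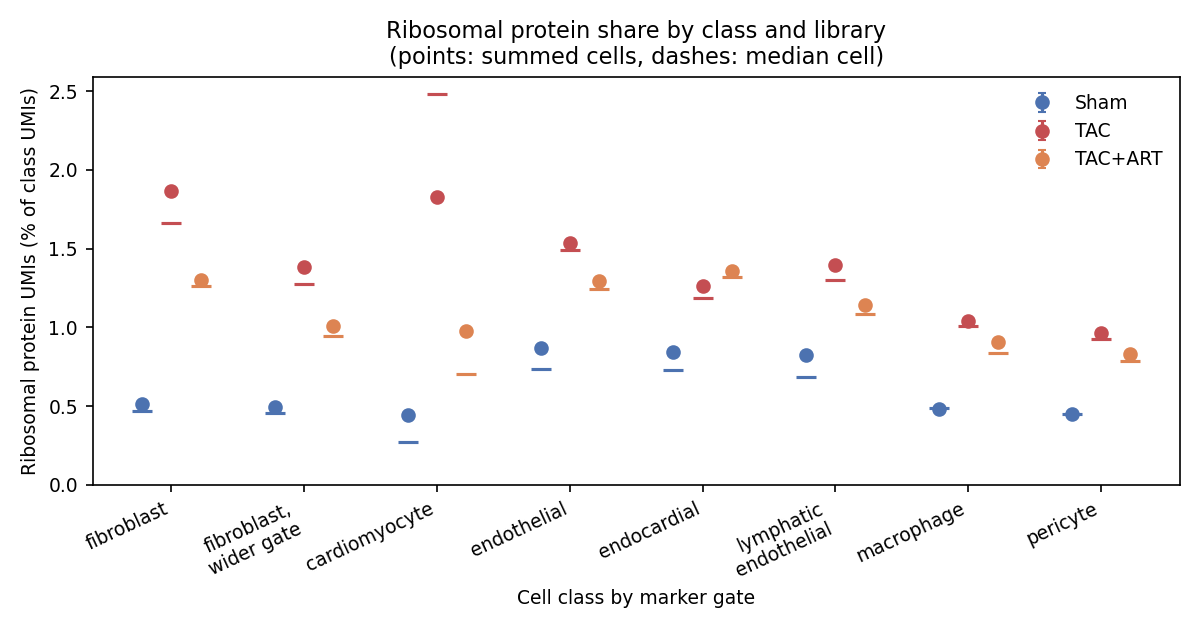
Share of UMIs from the 90 ribosomal protein genes (y axis, percent of the UMIs of the class) in the marker-gated classes (x axis) for the Sham, TAC and TAC+ART libraries, with points for summed cells, 95% Clopper-Pearson counting intervals smaller than the points, and dashes for the median cell. Every class is lowest in Sham, and TAC+ART lies below TAC except in endocardial-gated cells (1.36% against 1.26%).

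The same order was seen gene by gene. Matching counts over all genes were not made, so those below describe the members and not a trait particular to them. Among 84 members with at least 100 UMIs over the described classes of Sham, 31 had their highest CPM (UMIs of the gene per 1000000 UMIs of the class) in lymphatic, 27 in endothelial and 22 in endocardial cells, and 49 had their lowest in cardiomyocyte-gated cells. In TAC, 52 of 85 were highest in fibroblast-gated and 32 in cardiomyocyte-gated cells, and 60 were lowest in pericytes. In TAC+ART, 42 of 85 were highest in endocardial cells and 25 in fibroblast-gated cells. With the wider fibroblast gate in place of the narrow one, 70 of 85 were highest in cardiomyocyte-gated cells of TAC and 3 in fibroblasts, and in TAC+ART 57 of 85 were highest in endocardial cells and none in fibroblasts.

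TAC was compared with Sham to show how the members differed under pressure load. As a log2 ratio of summed shares, the members were 2.04 higher in cardiomyocyte-gated cells (counting interval 2.0 to 2.08), 1.87 higher in fibroblast-gated cells (1.84 to 1.89), or 1.48 (1.46 to 1.5) with the wider gate, 1.10 higher in macrophage-gated cells (1.06 to 1.14) and 0.82 higher in endothelial-gated cells (0.80 to 0.84). A gene was counted as higher or lower when it lay past 1.5-fold, among genes whose UMIs in both libraries summed to 100 or more. In cardiomyocyte-gated cells 78 of 79 members past this minimum were higher, where 23.3% of all 4906 genes were, and 1 was lower, where 20.8% of all genes were. In fibroblast-gated cells 81 of 83 members were higher (all genes 20.3%), and with the wider gate 81 of 84 (all genes 17.7%). Macrophage-gated cells had 77 of 82 higher (all genes 12.2%) and endothelial-gated cells 72 of 84 (all genes 10.8%). In the smaller classes these were 77 of 80 in pericytes (all genes 12.3%), 59 of 76 in lymphatic endothelial cells (all genes 13.5%) and 46 of 80 in endocardial cells (all genes 10.8%).

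The members moved as a block in each class. Their median log2 ratio was 2.18 in cardiomyocyte-gated cells, with quartiles of 1.99 and 2.28, where all genes had a median of -0.10. It was 1.90 in fibroblast-gated cells (all genes 0.00), or 1.48 with the wider gate (all genes 0.03), 1.10 in macrophage-gated cells (all genes 0.01) and 0.85 in endothelial-gated cells (all genes -0.05). Large and small subunit lay close together: the summed ratios were 2.0 and 2.09 in cardiomyocyte-gated, 1.90 and 1.83 in fibroblast-gated (1.5 and 1.45 with the wider gate), 1.11 and 1.09 in macrophage-gated and 0.82 and 0.82 in endothelial-gated cells. Of 79 members past the UMI minimum in all 4 classes, 70 were past 1.5-fold higher in each of them, as were 7.54% of all 4361 such genes. Another 7 were so in 3 classes, namely Rpl5, Rpl6, Rpl10a, Rpl27a, Rps21, Rps27 and Rps28.

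**Figure D2:**
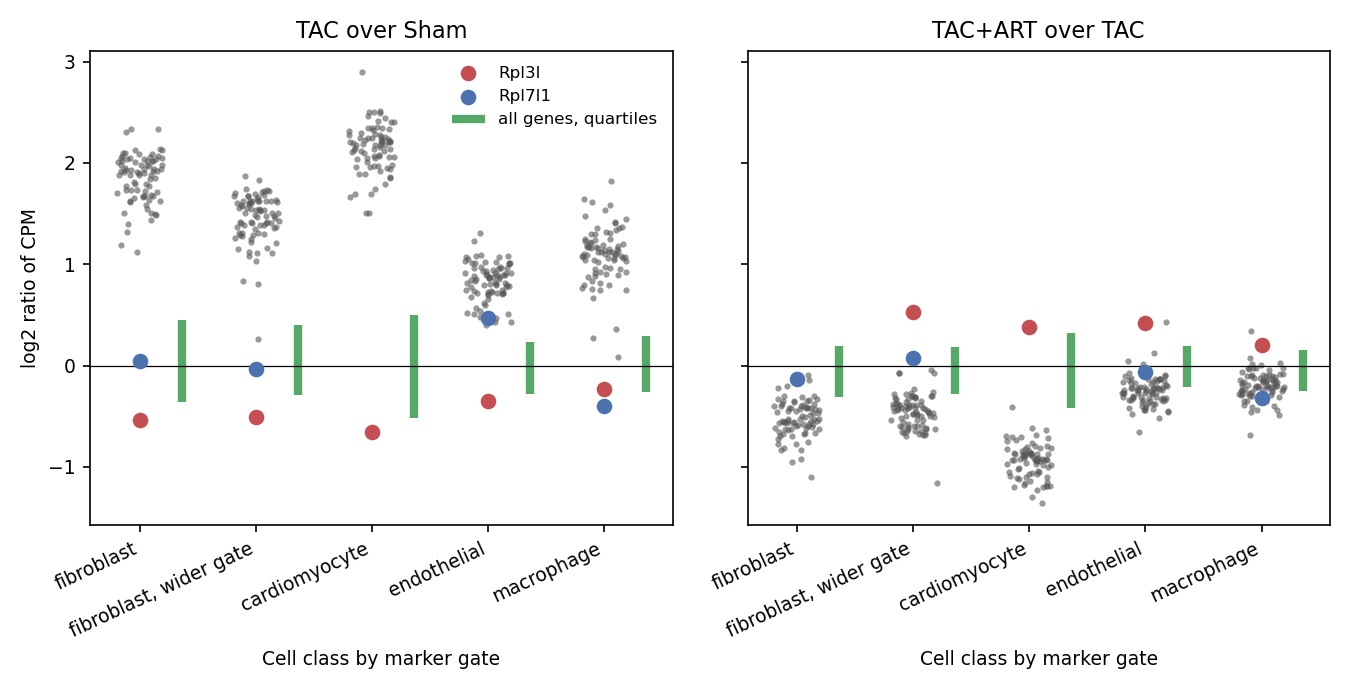
Log2 ratio of CPM (y axis) for each ribosomal protein gene whose UMIs in both libraries sum to 100 or more (points) in the 4 main classes and the wider fibroblast gate (x axis), for TAC over Sham on the left and TAC+ART over TAC on the right; green bars span the quartiles of all genes and points are spread sideways only to separate them. In the left panel nearly all members lie above the bars while Rpl3l lies below 0 in every class, and in the right panel the cardiomyocyte-gated points lie lowest, around a median of -0.93.

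The stalk of the large subunit, which recruits the elongation factors, is built of Rplp0, Rplp1 and Rplp2 on a base that includes Rpl12. Rplp1 had 108 CPM in Sham, 507 under TAC and 264 under TAC+ART in cardiomyocyte-gated cells and 115, 578 and 364 in fibroblast-gated cells. Rplp2 had 81.6, 414 and 194 CPM in cardiomyocyte-gated cells, a TAC-over-Sham log2 ratio of 2.34 (2.08 to 2.61). All stalk genes were thus highest in TAC and lowest in Sham, with ratios of 2.05 for Rplp0, 2.23 for Rplp1 and 2.31 for Rpl12 in cardiomyocyte-gated cells. In fibroblast-gated cells Rplp1 was among the 3 highest members, at 2.33 (2.18 to 2.48), or 1.87 with the wider gate. In endothelial-gated cells the 4 genes lay closer together, between 0.87 and 0.93.

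Rpl5 and Rpl11 form a particle with the 5S ribosomal RNA that can also bind the p53 regulator Mdm2. Rpl11 had 54.6, 214 and 128 CPM in Sham, TAC and TAC+ART cardiomyocyte-gated cells, and Rpl5 had 44.9, 145 and 74.1. Rpl5 was less different between TAC and Sham than Rpl11 in each of the 4 classes. Its log2 ratios were 1.69 against 1.97 in cardiomyocyte-gated, 1.31 against 1.94 in fibroblast-gated, 0.75 against 0.87 in macrophage-gated and 0.47 against 0.96 in endothelial-gated cells. The counting intervals of the pair separated in fibroblast-gated cells (1.08 to 1.55 against 1.74 to 2.14) and in endothelial-gated cells (0.30 to 0.65 against 0.80 to 1.12), and overlapped in cardiomyocyte- and macrophage-gated cells. With the wider fibroblast gate the ratios were 1.11 (0.92 to 1.31) and 1.51 (1.34 to 1.69).

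In the small subunit, Rpsa, which sits at the mRNA exit, had 83.1, 320.2 and 172 CPM in Sham, TAC and TAC+ART cardiomyocyte-gated cells. Rps19, mutated in Diamond-Blackfan anaemia, had 45.4, 220.6 and 96.0, and Rps27a, made as a fusion with ubiquitin, had 55.6, 252 and 125. These members followed the common order, with TAC-over-Sham ratios of 1.94, 2.28 and 2.18. Rps6, the target of the S6 kinases, was scarcer and moved less, at 16.3, 43.3 and 32.6 CPM, but rested on 32, 53 and 70 UMIs. Its ratio was 1.19 (0.81 to 1.59) in fibroblast-gated, or 0.81 (0.49 to 1.14) with the wider gate, 0.48 (0.21 to 0.77) in endothelial-gated and 0.37 (-0.17 to 0.99) in macrophage-gated cells.

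The members at the upper end differed between classes. In cardiomyocyte-gated cells they were Rps27l at 2.90 (2.25 to 3.66, on 22 and 104 UMIs), Rpl18 at 2.52 and Rps26 at 2.50. In fibroblast-gated cells they were Rpl39, a small protein at the exit tunnel, at 2.33, then Rplp1 at 2.33 and Rps26 at 2.30, and the same 3 led with the wider gate, at 1.83, 1.87 and 1.74. In endothelial-gated cells they were Rps27l at 1.31, Rpl10, which completes the large subunit, at 1.23 and Rpl15 at 1.09. In macrophage-gated cells they included Rpl39 at 1.64 and Rpl29 at 1.62. Rpl39, Rps26 and Rps27l were each among the 3 highest in 2 of the 4 classes.

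At the lower end, besides Rpl3l and Rpl7l1, stood Rpl22l1 and Rps27 in cardiomyocyte-gated cells, both at 1.51, and Rpl13a in fibroblast-gated cells at 1.13. In endothelial-gated cells these were Rps28 at 0.40 and Rps21 at 0.43, and in macrophage-gated cells Rpl10a at 0.08 (-0.22 to 0.40). Rpl10a is the clearest case of a member that followed the others in some classes and not in another. It had 76.0, 80.7 and 69.0 CPM in Sham, TAC and TAC+ART macrophage-gated cells, but 30.6, 121 and 66.2 in cardiomyocyte-gated cells. With the wider fibroblast gate the third lowest member was Rpl37rt at 0.26 in place of Rpl13a.

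TAC+ART was compared with TAC to show how the members differed when artesunate was given under load. The TAC library enters this comparison and the one with Sham, so these are not independent. As a log2 ratio of summed shares, TAC+ART was lower than TAC by 0.91 in cardiomyocyte-gated cells, with a ratio of -0.91 (-0.93 to -0.88). It was -0.52 (-0.54 to -0.50) in fibroblast-gated cells, or -0.45 with the wider gate, -0.25 (-0.26 to -0.24) in endothelial-gated cells and -0.20 (-0.21 to -0.18) in macrophage-gated cells. In endocardial-gated cells it was 0.11 (0.08 to 0.13), the opposite sign.

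In cardiomyocyte-gated cells 78 of 80 members past the minimum were past 1.5-fold lower and none was higher, where 17.9% of all genes were lower and 10% higher. Fibroblast-gated cells had 27 of 82 lower (all genes 9.07%), or 21 of 85 with the wider gate (all genes 7.28%). The gap between these classes was smaller with cells weighed equally, and in a common depth range the larger share was in fibroblast-gated cells. With equal weight per cell 60 of 80 were lower in cardiomyocyte-gated (all genes 15.3%) and 48 of 82 in fibroblast-gated cells (all genes 11.04%), and among cells of 3000 to under 6000 UMIs 36 of 71 (all genes 21.3%) and 44 of 76 (all genes 9.61%). Endothelial-gated cells had 1 of 85 lower (all genes 4.51%), Rpl13a at -0.66, and macrophage-gated cells had 1 of 84 (all genes 5.17%), again Rpl13a at -0.68. Pericytes had 3 of 80 lower (all genes 3.82%) and lymphatic endothelial cells 4 of 79 (all genes 4.94%), while endocardial cells had 1 of 81 higher (all genes 6.17%). Most members nevertheless lay slightly below TAC in the next pair of classes, 80 of 85 in endothelial-gated and 78 of 84 in macrophage-gated cells. The medians were -0.25 and -0.20, where all genes had -0.01 and -0.06. TAC+ART was still above Sham in every class, with log2 ratios of summed shares from 0.47 in lymphatic endothelial to 1.35 in fibroblast-gated cells (1.02 with the wider gate). Past 1.5-fold higher than Sham were 76 of 78 members in cardiomyocyte-gated (all genes 12%), 80 of 82 in fibroblast-gated (all genes 11.9%; wider gate 78 of 84, all genes 9.15%), 70 of 81 in macrophage-gated (all genes 7.48%) and 40 of 83 in endothelial-gated cells (all genes 6.01%).

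The lowest members in cardiomyocyte-gated cells were Rpl31, at the tunnel exit, with 33.1, 123 and 48.0 CPM and a TAC+ART-over-TAC ratio of -1.36 (-1.74 to -0.99), then Rpl36al at -1.30 and Rpl35 at -1.23. In fibroblast-gated cells they included Rps4l at -1.10 on 87 and 31 UMIs and Rpl12 at -0.92. With the wider gate they were Rps4l at -1.16, Rplp0 at -0.70 and Rpl13 at -0.69. In endothelial-gated cells Rpl13a was followed by Rpl35 at -0.52, and in macrophage-gated cells by Rplp0 at -0.49 and Rpl4 at -0.46.

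At the other end in cardiomyocyte-gated cells, Rps6 (-0.41, -0.94 to 0.14) and Rps27 (-0.61) were the members least below TAC after Rpl3l. In fibroblast-gated cells these were Rpl22l1 at -0.09, Rpl7l1 at -0.13 and Rps21 at -0.14, and with the wider gate Rpl3l at 0.53, Rpl7l1 at 0.08 and Rpl37rt at 0.03. In endothelial-gated cells the copy Rps27rt stood at 0.43 on 56 and 67 UMIs, followed by Rpl3l at 0.42 and Rps21 at 0.13 (0.05 to 0.20). In macrophage-gated cells Rps6 was 0.34 above TAC (0.04 to 0.64), followed by Rpl3l at 0.20 and Rpl27 at 0.07. Among members with at least 100 UMIs over the 3 libraries, the order TAC, TAC+ART, Sham from high to low held for 80 of 82 in cardiomyocyte-gated and 81 of 83 in fibroblast-gated cells (82 of 85 with the wider gate). It held for 79 of 85 in endothelial-gated and 76 of 84 in macrophage-gated cells. The exceptions in both of the first classes were Rpl3l and Rpl7l1. The share of all genes in this order was not computed, so the counts describe the members only.

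Rpl3l (chr17:24727820-24736143, plus strand) can take the place of Rpl3 (chr15:80077791-80091868, minus strand) in muscle ribosomes. In cardiomyocyte-gated cells Rpl3l had 493 UMIs (251 CPM) in Sham, 195 (159 CPM) under TAC and 447 (208 CPM) under TAC+ART. Rpl3 had 42 UMIs (21.4 CPM), 110 (89.9 CPM) and 119 (55.5 CPM). The pair ran in opposite directions: Rpl3l was highest in Sham and lowest in TAC, and Rpl3 lowest in Sham and highest in TAC. The TAC-over-Sham ratio was -0.66 (-0.91 to -0.42) for Rpl3l and 2.06 (1.54 to 2.62) for Rpl3, and the TAC+ART-over-TAC ratio was 0.39 (0.14 to 0.64) and -0.70 (-1.08 to -0.31). Rpl3l made up 92.1% of the pair's UMIs in Sham (89.5 to 94.3), 63.9% under TAC (58.3 to 69.3) and 79.0% under TAC+ART (75.4 to 82.3). Per kilobase of exon, Rpl3l was the fourth highest member in Sham cardiomyocyte-gated cells, at 153 CPM per kb, below Rpl36, Rps29 and Rplp1. This rank depends on the division by length, since these members have exon lengths of 383, 693 and 499 bases against 1643 for Rpl3l. In CPM, Rpl3l was above them, at 251 against 92.8, 166 and 108.

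These values moved with the depth of the cells. In cardiomyocyte-gated cells of at least 6000 UMIs, Rpl3l had 267 CPM in Sham, 169 under TAC and 222 under TAC+ART, a TAC-over-Sham ratio of -0.65 (-0.95 to -0.37). Between 3000 and 6000 UMIs it had 183, 168 and 176 CPM on 43, 55 and 77 UMIs, a ratio of -0.13 (-0.73 to 0.49), so no difference was detectable at that depth. Under 3000 UMIs it had 109, 89.9 and 181 CPM on 7, 13 and 36 UMIs, where TAC+ART and not Sham was highest. There the TAC-over-Sham ratio was -0.33 (-1.71 to 1.28) and the TAC+ART-over-TAC ratio 0.97 (0.06 to 2.05). The order with Sham highest and TAC lowest was thus seen beyond counting error in the deepest band and in neither of the others. From the deepest band down, the ratio of Rpl3 was 1.88 (1.19 to 2.62), 1.41 (0.47 to 2.56) and 1.44 (-0.11 to 4.02, on 3 Sham UMIs).

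Outside cardiomyocyte-gated cells Rpl3l was lower, and its source there was not tested. It had 17.0, 11.6 and 14.6 CPM in fibroblast-gated, 24.1, 19.0 and 25.3 in endothelial-gated and 18.3, 15.8 and 18.1 in macrophage-gated cells of Sham, TAC and TAC+ART. The 10 cardiomyocyte markers together held 0.407% to 0.472% of UMIs in fibroblast-gated cells and 5.70% to 6.21% in cardiomyocyte-gated cells. Of Rpl3l and these markers together, Rpl3l was 0.439% in Sham cardiomyocyte-gated cells (0.401 to 0.480), 0.415% in fibroblast-gated, 0.439% in endothelial-gated and 0.431% in macrophage-gated cells. In TAC the same 4 classes gave 0.256%, 0.249%, 0.278% and 0.286%, and in TAC+ART 0.336%, 0.308%, 0.369% and 0.325%. Within each library these classes had one ratio within counting error, and the ratio was lowest in TAC. Sham pericytes, at 0.656% (0.496 to 0.852) on 56 Rpl3l UMIs, were the one class whose interval did not overlap that of cardiomyocyte-gated cells.

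**Figure D3:**
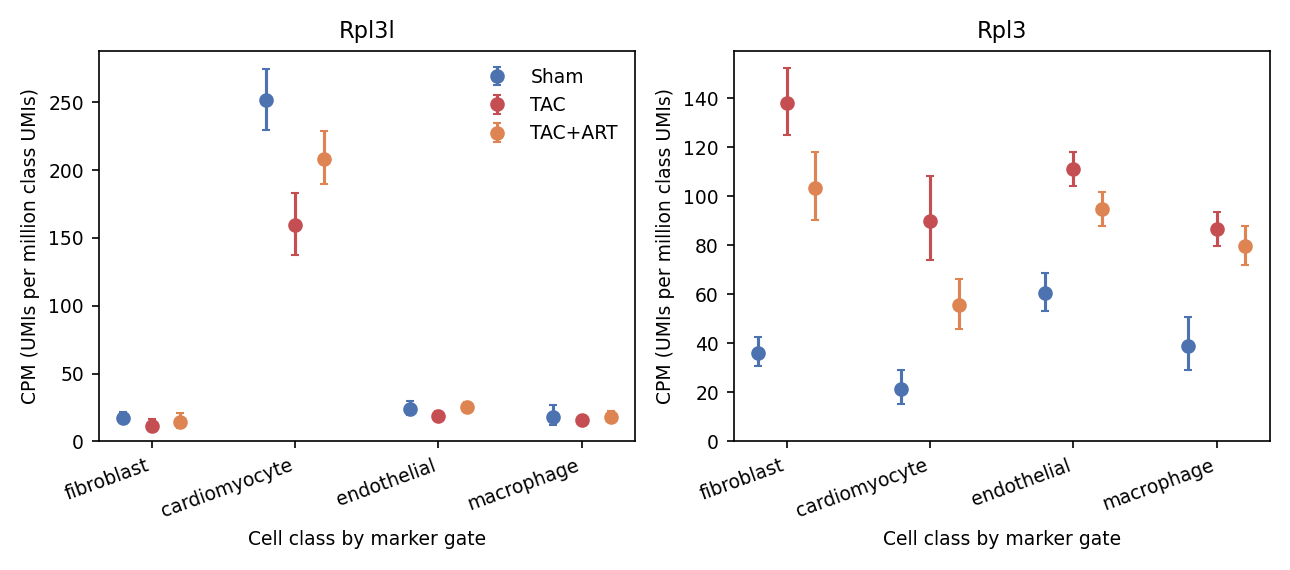
Level of Rpl3l (left) and Rpl3 (right) in CPM (y axes, linear and not shared) in the 4 main classes (x axis) of the 3 libraries, with 95% Poisson counting intervals. Rpl3l in cardiomyocyte-gated cells runs from 251 CPM in Sham to 159 in TAC and 208 in TAC+ART, while Rpl3 is lowest in Sham in each class.

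Rpl7l1, a relative of Rpl7 known to act in ribosome assembly, was the other member that did not follow. In fibroblast-gated cells it had 31.0, 32.0 and 29.2 CPM in Sham, TAC and TAC+ART, while Rpl7 had 44.1, 174 and 123. The TAC-over-Sham ratio of Rpl7l1 was 0.05 (-0.36 to 0.44), or -0.03 with the wider gate, against 1.98 for Rpl7. In macrophage-gated cells Rpl7l1 had 52.6, 40.1 and 32.2 CPM, a ratio of -0.40 (-0.77 to 0.00), and in cardiomyocyte-gated cells 19.4, 20.4 and 20.5 on 38, 25 and 44 UMIs. In endothelial-gated cells it was nearer the others, at 0.47 (0.15 to 0.80).

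The other related pairs mostly kept within the block. Rps27l, which p53 is known to induce, made up 11.5% of its pair with Rps27 (7.36 to 16.9) in Sham, 25.7% (21.5 to 30.2) under TAC and 19.2% under TAC+ART in cardiomyocyte-gated cells, and 12.1%, 19.4% and 17.5% in endothelial-gated cells. Rpl22l1 ran the other way between Sham and TAC, from 40.2% of its pair with Rpl22 in Sham fibroblast-gated cells to 30.8% in TAC and 35.4% in TAC+ART (39.8%, 30.2% and 32.5% with the wider gate), and from 29.3% to 22.6% and 25.1% in endothelial-gated cells. Rpl36al stayed between 30.2% and 45.9% of its pair with Rpl36a in the 4 classes. Rps4l, a processed copy of Rps4x, was 5.4% to 17.5% of that pair, and reads of copies this alike may have been divided between the rows by the counting. Rpl39l, the testis form of Rpl39, had 0 UMIs in every library of fibroblast- and cardiomyocyte-gated cells beside 74 to 759 UMIs of Rpl39. Rpl10l has no row in the matrices analysed here.

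Among the members, 6 were under 100 UMIs for TAC over Sham in all 4 classes, namely Rpl32l, Rpl39l, Rpl6l, Rps27rt, Rps3a2 and Rps3a3. Rps3a3 is a processed pseudogene (chr13:108670603-108671397, plus strand) inside Pde4d on the same strand. It had 25, 14 and 48 UMIs in Sham, TAC and TAC+ART cardiomyocyte-gated cells and at most 7 in each of the other 3 main classes, so its reads cannot be told apart from those of Pde4d. Rpl32l lies inside Map7. Among the members named above, Rpl13a overlaps Gm45713, Rpl13 overlaps Gm20388 and Rpl36al overlaps Gm49383 on the same strand. Genes on the other strand overlap Rpl3 (Syngr1), Rpl7l1 (Gm26904), Rps4l (Tmtc1), Rps27rt (Osbpl10), Rpl5 (Fam69a), Rpl12 (Lrsam1) and Rpl15 (Nkiras1). The same holds for Rpl18 (Sphk2), Rpl22l1 (Gm33051), Rpl31 (Tbc1d8), Rpl35 (Wdr38 and Arpc5l), Rps27a (Clhc1) and Rps28 (Kank3). With the strand setting not stated, the values of all these members are uncertain by whatever the counting gave to these neighbours. The 138 rows with -ps names held 0.00896%, 0.0123% and 0.0112% of UMIs, far less than the members. Per kilobase of exon the highest-ranked members were the same few in most classes: in TAC, Rplp1, Rps29, Rpl36 and Rpl38 led in that order in all 4 main classes, with Rplp1 between 606 and 1158 CPM per kb. Their exon lengths are only 499, 693, 383 and 542 bases, so the division by length raises their rank. In CPM they stood at 507, 613, 337 and 336 in TAC cardiomyocyte-gated cells, a different order.

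The members were set beside lists of related genes. Short abundant cytoplasmic mRNAs outside the ribosome (15 genes such as Tmsb4x, Fth1 and Gapdh) had nearly the same TAC-over-Sham ratios: 2.02 in cardiomyocyte-gated, 1.75 in fibroblast-gated (1.41 with the wider gate), 1.07 in macrophage-gated and 0.79 in endothelial-gated cells, with 15 of 15 genes past 1.5-fold higher in the first 3 classes and 10 of 15 in the last. Tmsb4x, an actin-binding peptide, had 74.96, 404 and 284 CPM in cardiomyocyte-gated cells, and the ferritin chain Fth1 had 199.9, 841 and 390.2. For TAC+ART over TAC the list stood at -1.05, -0.54, -0.19 and -0.27 in the same classes. A difference of this size was therefore also present in mRNAs that do not encode ribosomal proteins.

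Other TOP mRNAs followed to a smaller degree. Their summed TAC-over-Sham ratio was 1.52 in cardiomyocyte-gated, 1.34 in fibroblast-gated (1.0 with the wider gate), 0.59 in macrophage-gated and 0.57 in endothelial-gated cells, with 19 of 21, 16 of 25, 9 of 25 and 8 of 25 genes past 1.5-fold higher. The elongation factor Eef1a1 had 51.5, 243 and 125 CPM in cardiomyocyte-gated cells and Tpt1 had 193, 879 and 385. Fau, which encodes a further ribosomal protein as a fusion, had 49.97, 304 and 141 CPM. The initiation factor subunit Eif3e was less different, at 27.0, 43.3 and 35.0 CPM. Among the members with a start window, those with a tract exactly at the annotated start had a median ratio of 2.20 in cardiomyocyte-gated cells and those without it 2.12, and in fibroblast-gated cells both stood at 1.90.

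Genes that make or control ribosomes had summed ratios nearer 0, but single genes differed in both directions, and those named here with ratios were picked after their values were seen. The summed ratio of 37 ribosome assembly and ribosomal RNA transcription genes was 0.23 in cardiomyocyte-gated, 0.17 in fibroblast-gated (0.14 with the wider gate), -0.03 in endothelial-gated and -0.25 in macrophage-gated cells. In macrophage-gated cells 9 of the 28 past the UMI minimum were past 1.5-fold lower, where 8.57% of all genes were, and 2 were higher. The lower ones included Pes1 at -1.13 (-1.75 to -0.45) and Mdn1 at -0.65 (-0.94 to -0.34), both of large-subunit assembly. In cardiomyocyte-gated cells 2 of 9 were higher and 2 lower, shares near those of all genes. Fibroblast-gated cells had 6 of 27 higher and 3 lower (all genes 14.3% lower), among them Nop10 at 1.64 and Las1l at -1.35, and endothelial-gated cells 3 of 32 higher and 1 lower (all genes 7.85% lower). The median gene differed in sign from the sum in cardiomyocyte-gated (-0.40) and endothelial-gated cells (0.04). The 19 genes of mTOR and Larp1 control stood at 0.04, -0.09, -0.04 and -0.04 in cardiomyocyte-, fibroblast-, endothelial- and macrophage-gated cells, where the medians were 0.06, 0.28, 0.07 and -0.03, and the wider fibroblast gate gave a sum of -0.05. Past 1.5-fold were 0 of 13 in cardiomyocyte-gated cells, 3 of 17 higher and 3 lower in fibroblast-gated, 2 of 18 lower in endothelial-gated and 1 of 17 higher in macrophage-gated cells. None of these shares stood far above that of all genes given above for the class and direction. Deptor, an inhibitor of mTOR, had 225, 104 and 161 CPM in fibroblast-gated cells, a ratio of -1.11 (-1.31 to -0.92). Mtor had 66.3, 59.6 and 65.7 CPM in cardiomyocyte-gated cells and Larp1 had 97.9, 109 and 95.1. The proteins of mitochondrial ribosomes, a separate set, were 0.98 higher in cardiomyocyte-gated, 0.50 in fibroblast-gated (0.37 with the wider gate), 0.33 in endothelial-gated and 0.15 in macrophage-gated cells.

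**Figure D4:**
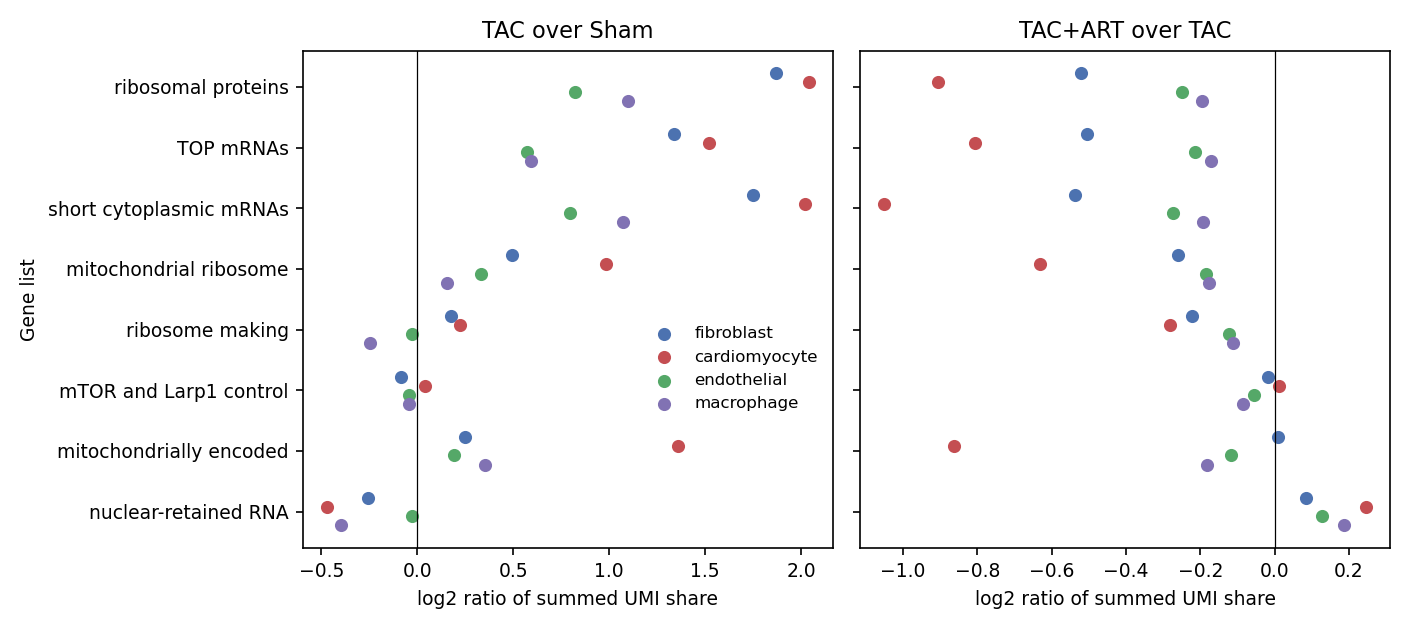
Log2 ratio of the summed UMI share of each gene list (rows) for TAC over Sham (left) and TAC+ART over TAC (right), 1 point per main class; the x axes differ between panels. Short cytoplasmic mRNAs lie beside the ribosomal proteins in each class, at 2.02 against 2.04 in cardiomyocyte-gated cells, and mTOR and Larp1 control lies near 0.

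Other measures moved with the members, and their part in the differences was not tested. Malat1, an RNA kept in the nucleus, was 12.3%, 8.92% and 10.5% of UMIs in Sham, TAC and TAC+ART cardiomyocyte-gated cells, the reverse of the members' order. It was 7.04%, 5.94% and 6.27% in fibroblast-gated (7.02%, 6.09% and 6.73% with the wider gate), 4.33%, 3.31% and 3.79% in macrophage-gated and 3.75%, 3.71% and 4.04% in endothelial-gated cells. Mitochondrially encoded RNA was 0.924%, 2.37% and 1.30% in cardiomyocyte-gated cells, and between 0.602% and 1.04% in the other 3 main classes. Haemoglobin, RNA of red cells, was 0.034%, 0.199% and 0.197% in cardiomyocyte-gated cells and 0.026%, 0.084% and 0.134% in fibroblast-gated cells, so it did not follow the members from TAC to TAC+ART. Markers of some other cell types moved too. In cardiomyocyte-gated cells of Sham, TAC and TAC+ART the 10 fibroblast markers together held 0.0635%, 0.270% and 0.239% of UMIs, the 9 endothelial markers 0.0139%, 0.0486% and 0.0359% and the 10 macrophage markers 0.0127%, 0.0338% and 0.0251%, in the members' order and with no marker at 0. In the same cells the pericyte markers ran the other way, at 0.0378%, 0.0287% and 0.0331%. The endocardial markers were lowest in TAC, at 0.0561%, 0.0423% and 0.0651%. The lymphatic endothelial markers differed little, at 0.0201%, 0.0236% and 0.0206%. In fibroblast-gated cells the endothelial markers held 0.0199%, 0.0344% and 0.0347% and the macrophage markers 0.0106%, 0.0284% and 0.0249%. Lymphatic endothelial markers there held 0.0100%, 0.0197% and 0.0130%, but pericyte (0.0282%, 0.0271% and 0.0334%) and endocardial markers (0.0129%, 0.0111% and 0.0147%) were lowest in TAC. Fibroblast markers held 0.124%, 0.280% and 0.362% in endothelial-gated and 0.143%, 0.249% and 0.309% in macrophage-gated cells, where TAC+ART was highest.

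The share also depended on how many UMIs a cell had. In cardiomyocyte-gated cells under 3000 UMIs it was 1.51% in Sham, 3.00% under TAC and 2.39% under TAC+ART, between 3000 and 6000 UMIs 1.12%, 2.76% and 1.85%, and from 6000 UMIs upward 0.308%, 1.19% and 0.534%. Shallow cells thus had the larger share in each library, and the order of the libraries was the same in each band. Cells under 3000 UMIs were 32 of 280 in Sham, 75 of 236 in TAC and 96 of 371 in TAC+ART. Between 3000 and 6000 UMIs the TAC-over-Sham ratio in cardiomyocyte-gated cells was 1.30, in place of 2.04 over all cells, and the TAC+ART-over-TAC ratio was -0.58, with the 36 of 71 members lower given above in place of 78 of 80. The median cell held 0.274%, 2.48% and 0.707% in Sham, TAC and TAC+ART. Lower quartiles were 0.209%, 0.671% and 0.400%, and upper quartiles 0.426%, 3.54% and 2.55%. Cells of both TAC and TAC+ART thus spread widely and their quartile ranges overlapped, and that of TAC+ART also reached into that of Sham.

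In endothelial-gated cells the bands differed less, at 0.922%, 0.852% and 0.864% in Sham and 1.89%, 1.54% and 1.37% in TAC. Fibroblast-gated cells of TAC held 4.79% under 3000 UMIs, 1.91% up to 6000 and 1.58% above, with the wider gate 3.29%, 1.44% and 1.24%.

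**Figure D5:**
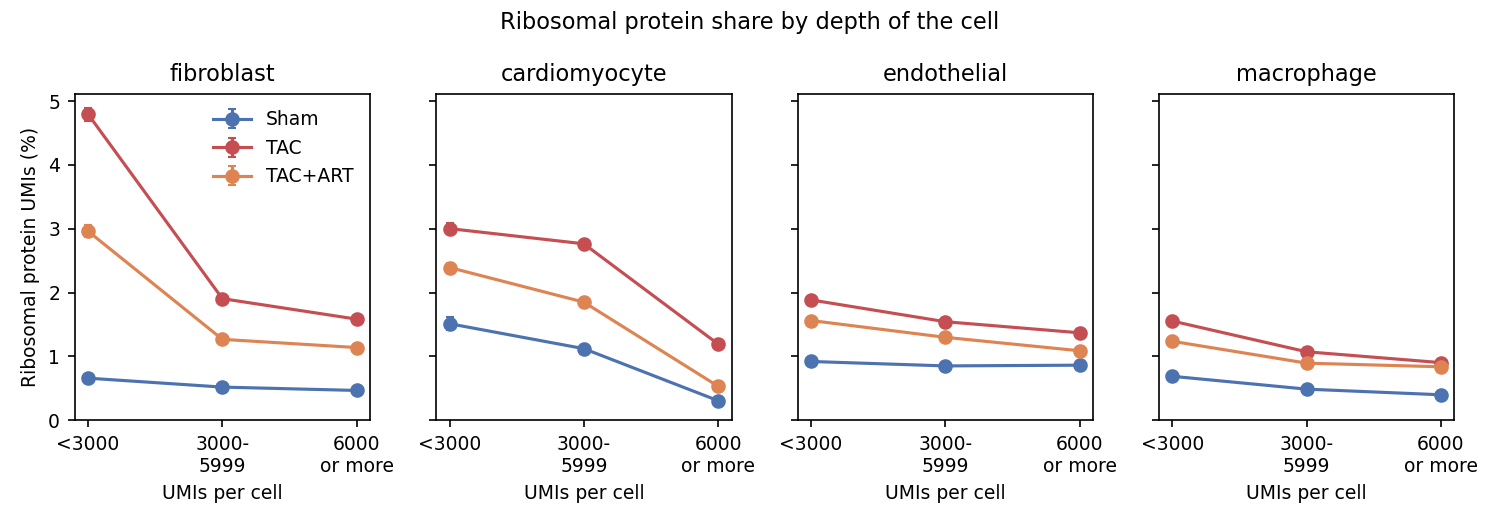
Share of UMIs from the 90 ribosomal protein genes (y axis, percent) by UMIs per cell in 3 bands (x axis) in each main class and library, with 95% Clopper-Pearson counting intervals. TAC lies above TAC+ART and TAC+ART above Sham in every band, and the share falls steeply with depth in cardiomyocyte-gated cells, from 3.00% to 1.19% in TAC.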

How the data were processed

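The files the authors deposited hold unnormalized UMI counts, 1 matrix of genes by barcodes per library. Per the submitters' processing notes, Cell Ranger and Seurat were used with the mm10 build; their versions, the annotation and the strand setting are not stated. The filter asked for 500 UMIs or more, 300 genes or more and no more than 10% mitochondrial UMIs, and took out 2 Sham barcodes, 1 TAC barcode and 0 TAC+ART barcodes. Classes were gated on fixed markers as described in the report; where a library's median marker share was 0, as for macrophages in Sham, only the 3-marker condition acted. Classes under 50 cells in a library were not described. UMIs of all cells of a class in a library were added up and scaled to the class total (CPM). Ratios are log2 with 0.5 counts added to each gene, with exact conditional binomial 95% intervals. Shares have Clopper-Pearson and CPM Poisson intervals; UMIs of pooled hearts in 1 library do not measure variation between mice. Named members were the 3 highest and 3 lowest ratios per main class and comparison among those with at least 100 UMIs, plus fixed stalk, 5S and paralog genes; a few genes that this rule or the lists would name are not reported here. Related lists follow the same rule, with 1.5-fold as the limit. The members, lists and markers were chosen with earlier results of these data known. Alternatives were a gate at 8 times the median, mitochondrial genes left out, doublets removed by Scrublet score (scanpy 1.11.5, the top 0.8% per 1000 barcodes, 112, 440 and 376 barcodes), cells of at most 8000 UMIs, equal weight per cell, centring on the median gene, no UMI minimum and a 2-fold limit. Those added after seeing the data were the wider fibroblast gate and cells of 3000 to under 6000 UMIs. The calculation was tested on simulated data. Python 3.11.15, numpy 2.4.6, scipy 1.17.1 and pandas 2.3.3 were used. Positions and exon lengths came from GENCODE M21 and start windows from RefSeq GRCm38.p6, on the build of the files.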

Additional observations from a re-analysis of the deposited data

Results flagged for a closer look

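Endocardial-gated cells were singled out because TAC+ART lay above TAC there, a log2 ratio of summed shares of 0.11 (0.08 to 0.13), while it lay below TAC in the other 6 described classes. The difference between classes was not tested. It rests on 397 TAC and 323 TAC+ART cells; 57 of 81 members past the UMI minimum were above TAC, and 1, Rpl22l1 at 0.70 on 89 and 119 UMIs, was past 1.5-fold (all genes 6.17%). Between 3000 and 6000 UMIs the share was 1.39% in TAC and 1.51% in TAC+ART, from 6000 UMIs upward 1.13% and 1.24%, and under 3000 UMIs 1.92% and 1.74% on 40 and 20 cells. Malat1 was 3.77% of UMIs in TAC and 5.02% in TAC+ART endocardial-gated cells.

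Barcodes outside the classes also carried the difference between libraries. The 580 TAC barcodes that passed unrelated gates held 1.85% ribosomal protein UMIs, above 0.909% in Sham and 1.44% in TAC+ART. The 1422 TAC barcodes that passed no gate held 1.08%, above 0.479% in Sham and 0.912% in TAC+ART. The wider fibroblast gate took its added cells from these barcodes of no gate, so the values here and there are not independent.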

How the results depend on the processing

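No share ratio of the 4 main classes changed direction under any alternative. Member counts were judged by their size and not by direction. Of 58 recomputed share ratios 26 stayed within the counting interval and 32 moved past it, and of 74 recomputed member counts 60 stayed within 1.5 times and 14 did not; the cause of each move was not tested. For TAC over Sham, the fibroblast-gated ratio was 2.70 with the gate at 8 times the median, 1.95 in cells of at most 8000 UMIs, 2.10 with equal weight per cell and 1.48 with the wider gate. The cardiomyocyte-gated ratio was 2.14, 1.82 and 1.88 under the first 3 of these, 2.14 centred on the median gene (a shift of 0.10) and 1.30 in cells of 3000 to under 6000 UMIs. The endothelial-gated ratio was 0.80, 0.84, 0.88, 0.86 and 0.86 under the same 5, and its count was 15 of 84 higher with a 2-fold limit (all genes 3.85%). The macrophage-gated ratio was 1.04 at the 8-fold gate and 1.14 in cells of 3000 to under 6000 UMIs.

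For TAC+ART over TAC, the fibroblast-gated ratio was -0.21 at the 8-fold gate, -0.54 in cells of at most 8000 UMIs, -0.62 with equal weight, -0.47 centred, -0.45 with the wider gate and -0.59 in cells of 3000 to under 6000 UMIs. Its count of 27 of 82 members lower (all genes 9.07%) became 4 of 67 at the 8-fold gate (all genes 13.5%), 48 of 82 with equal weight (11.04%), 17 of 82 centred (7.35%), 1 of 82 with a 2-fold limit (1.59%) and 44 of 76 in cells of 3000 to under 6000 UMIs (9.61%), so it lay below the share of all genes at the 8-fold gate and with the 2-fold limit. The cardiomyocyte-gated ratio was -1.07 at the 8-fold gate, -0.65 in cells of at most 8000 UMIs, -0.69 with equal weight and -0.58 in cells of 3000 to under 6000 UMIs, and its count of 78 of 80 lower (all genes 17.9%) became 26 of 80 with a 2-fold limit (6.14%) and 36 of 71 in that depth range (21.3%), where a larger share of members was lower in fibroblast-gated cells. The endothelial-gated ratio was -0.23 without doublets and -0.24 centred, and its count of 1 became 2 with equal weight, 5 with no UMI minimum and 0 with a 2-fold limit. The macrophage-gated ratio was -0.22 in cells of at most 8000 UMIs, -0.23 with equal weight, -0.14 centred and -0.26 in cells of 3000 to under 6000 UMIs, and its count of 1 became 5 with no UMI minimum, 0 with a 2-fold limit and 2 in that depth range. For the recomputed endothelial- and macrophage-gated counts, the split into higher and lower members and the shares of all genes are not given here. With no UMI minimum the counts take in members under 100 UMIs.

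No paired analysis was possible because each group had 1 library. Leaving out a replicate was not run, with 1 library per group. Depth limits the members with few UMIs, such as Rps6 and Rpl7l1 in cardiomyocyte-gated cells.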

Other observations

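Not every RNA with a TOP tract was higher in TAC. Gas5, Snhg1 and Snhg8 are host RNAs of small nucleolar RNAs, and these were picked out after their values were seen. In cardiomyocyte-gated cells Gas5 had 53.0 CPM in Sham, 40.8 under TAC and 48.9 under TAC+ART, a TAC-over-Sham log2 ratio of -0.37 (-0.89 to 0.12). Snhg1 had 18.9, 13.1 and 20.04 CPM and Snhg8 16.8, 18.8 and 14.9, with ratios of -0.50 and 0.17. In fibroblast-gated cells the ratios were 0.36 for Gas5, -0.03 for Snhg1 and -0.20 for Snhg8. Beside them the elongation factor Eef1a1 stood at 2.23 in cardiomyocyte-gated and 1.97 in fibroblast-gated cells.

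Nuclear-encoded subunits of cytochrome c oxidase, also picked out after seeing the values, stood near the summed ratio of the short cytoplasmic mRNAs (2.02) in cardiomyocyte-gated cells. They belong to that list and were its most abundant genes in these cells, so their nearness to its sum is partly built in. Cox4i1 had 318 CPM in Sham, 1358 under TAC and 614 under TAC+ART, Cox6c had 344, 1392 and 612, and Cox7c had 289, 1195 and 547. Their TAC-over-Sham ratios were 2.09, 2.02 and 2.05 there, against 1.14, 1.14 and 1.34 in fibroblast-gated cells. The highest of the list was the glycolytic enzyme Gapdh, which had 139, 909 and 330.0 CPM in cardiomyocyte-gated cells, a ratio of 2.71 (2.52 to 2.90).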
